A study of Mus musculus with 12 samples.

Results

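The genes described here encode the collagens, the laminins and a set of other extracellular matrix components and collagen-handling proteins in the forebrain of WT and Shank2-mutant mice. They were the rows with a mean normalized count of at least 10 over the 12 mice whose mouse symbol was that of a collagen chain or of a laminin alpha, beta or gamma chain, or was Fn1, Sparc, Hspg2, Nid1, Nid2, Lum, Dcn, Ogn, Bgn, Fmod, Serpinh1, Lox, Loxl1 or Fbn1. The rule found 69 genes of the 19312 in the table, or of the 17655 with such a mean. All 69 names that the annotation holds under this rule were in the table and passed the minimum, the lowest being Col10a1 with a mean normalized count of 10.4, Col9a1 with 28.2 and Col6a6 with 31.8. No measured difference between groups entered the rule, but the members were chosen with earlier results of these data known.

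Collagens are built from chains that fold into a triple helix in the endoplasmic reticulum, where Serpinh1 (HSP47) acts as a collagen-specific chaperone and prolyl and lysyl hydroxylases modify the chains. In the brain, fibrillar collagens I and III are made mainly by fibroblasts of the meninges and of the walls of larger vessels, whereas collagen IV, laminins, nidogens and perlecan form the basement membranes around vessels and beneath the pia. Little of this matrix lies in the neuropil itself, although single members such as Sparc, a matricellular protein, are made by glia.

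RNA was sequenced from 12 male C57BL/6N mice at postnatal day 25, with 3 mice in each of 4 groups. WT and Shank2-KO mice each received either vehicle (groups WT-Veh and KO-Veh) or memantine (groups WT-Mem and KO-Mem), and the KO mice carried a homozygous deletion of exons in Shank2, which encodes a scaffold of excitatory synapses. Memantine, an NMDA receptor blocker, was given orally at 20 mg/kg 2 times a day from postnatal day 7 to 21, and the vehicle groups received 0.1% saccharin on the same schedule. The labels call the tissue whole brain, and the methods describe brains without cerebellum and underlying brain stem. The deletion was constitutive rather than limited to a cell type, each library came from 1 mouse, and the last dose preceded the collection of tissue by several days. The comparisons are named as in the study: Veh-K/W and Mem-K/W set KO against WT within a treatment, and KO-M/V and WT-M/V set memantine against vehicle within a genotype.

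Shank2 had 7156 to 8548 normalized counts in the 6 WT mice and 2706 to 3178 in the 6 KO mice, so each library matched its labelled genotype. The depth relative to the mean of the 12 libraries, read from the smallest values in each column, was between 0.890 and 1.15, and the total number of reads was not known. Neuronal, astrocytic and oligodendrocytic markers were present in each library, as the labelled tissue requires. The cerebellar granule cell gene Gabra6 had 254 normalized counts in KO-Veh replicate 3 and 0 to 12.9 in the other 11 mice, and the summed level of 8 cerebellar markers was 6525 in that mouse and 4061 to 4534 in the others. KO-Mem replicate 3 stood apart from its group in many matrix genes, and counts of called members that changed without either mouse are given both ways. Both were singled out after their values were seen.

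Of the 14 members that differed between genotypes by the test described with the genotype contrast, 11 had a start site in the RefSeq promoter table, and 4 of these had a start site within 1 base of that of the gene annotation and no annotated exon in the 100 bases upstream of it. Their 100 bases are shown 5′ to 3′ (RefSeq, build GRCm38.p6) because these members moved in both directions in the KO mice: Serpinh1, Bgn and Col3a1 were lower and Col5a3 was higher. Capitals mark a GC box (GGGCGG or its reverse complement CCGCCC, the letters bound by Sp1 family factors), a CCAAT box (CCAAT or ATTGG) or a TATA box (TATAAA or TTTATA). The windows lie at chr7:99353240-99353339 on the minus strand, chrX:73483501-73483600 on the plus strand, chr1:45311438-45311537 on the plus strand and chr9:20815068-20815167 on the minus strand.
Serpinh1: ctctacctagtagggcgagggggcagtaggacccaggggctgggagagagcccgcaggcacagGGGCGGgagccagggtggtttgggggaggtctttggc
Bgn: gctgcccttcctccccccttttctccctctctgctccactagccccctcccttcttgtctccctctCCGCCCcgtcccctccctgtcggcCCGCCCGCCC
Col3a1: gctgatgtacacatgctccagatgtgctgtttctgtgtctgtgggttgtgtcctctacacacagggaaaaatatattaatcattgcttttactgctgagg
Col5a3: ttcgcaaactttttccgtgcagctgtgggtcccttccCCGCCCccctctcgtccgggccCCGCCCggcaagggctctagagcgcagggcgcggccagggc
The windows of Serpinh1, Bgn and Col5a3 held 1, 3 and 2 GC boxes, and that of Col3a1 held none of the 3 motifs. Adjacent GC boxes overlap at the end of the Bgn window, where the last 10 bases are in capitals. Over the 250 bases upstream of the start, a GC box was found in 28 of the 48 members with a promoter in the table (58.3%), in 54.9% of the promoters of genes in the expression table and in 32.9% of all promoters. A CCAAT box was found in 29.2% of the members, 35.8% of the promoters of genes in the expression table and 34.5% of all promoters, and a TATA box in 12.5% of the members, 7.08% of the promoters of genes in the expression table and 12.97% of all promoters. A match of these letters is a description of the sequence and not of binding.

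The genotype contrast, KO against WT averaged over vehicle and memantine, addressed how loss of Shank2 changed matrix expression across both treatments. In this contrast 14 of the 69 members passed the test, of which 10 were lower and 4 higher in KO mice. The lower members were the basement membrane components Hspg2 and Col4a2, the fibrillar collagens Col3a1 and Col11a2, Col9a3, Col15a1, Col26a1, the proteoglycan Bgn, the adhesive glycoprotein Fn1 and the collagen chaperone Serpinh1, with log2 fold changes from -0.78 to -0.28. The higher members were Sparc, Fbn1, Lamb3 and Col5a3, with log2 fold changes from 0.41 to 0.58. The test was limma's moderated test on log2 of the normalized count plus 1, with Benjamini-Hochberg adjustment over all 17655 genes tested and a threshold of 0.05 on the adjusted p. Of all genes tested, 10.5% passed, 5.73% as lower and 4.79% as higher, against 20.3%, 14.5% and 5.8% of the members. The median log2 fold change was -0.15 over the members and 0.0035 over all genes, and 46 of 69 members lay below 0 against 49.1% of all genes. Without WT-Veh replicate 3 the median over the members was -0.10. In 7 members all 6 KO mice lay below all 6 WT mice, against 2.2% of all genes, and in no member did they all lie above, against 1.86% of all genes.

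**Figure D1:**
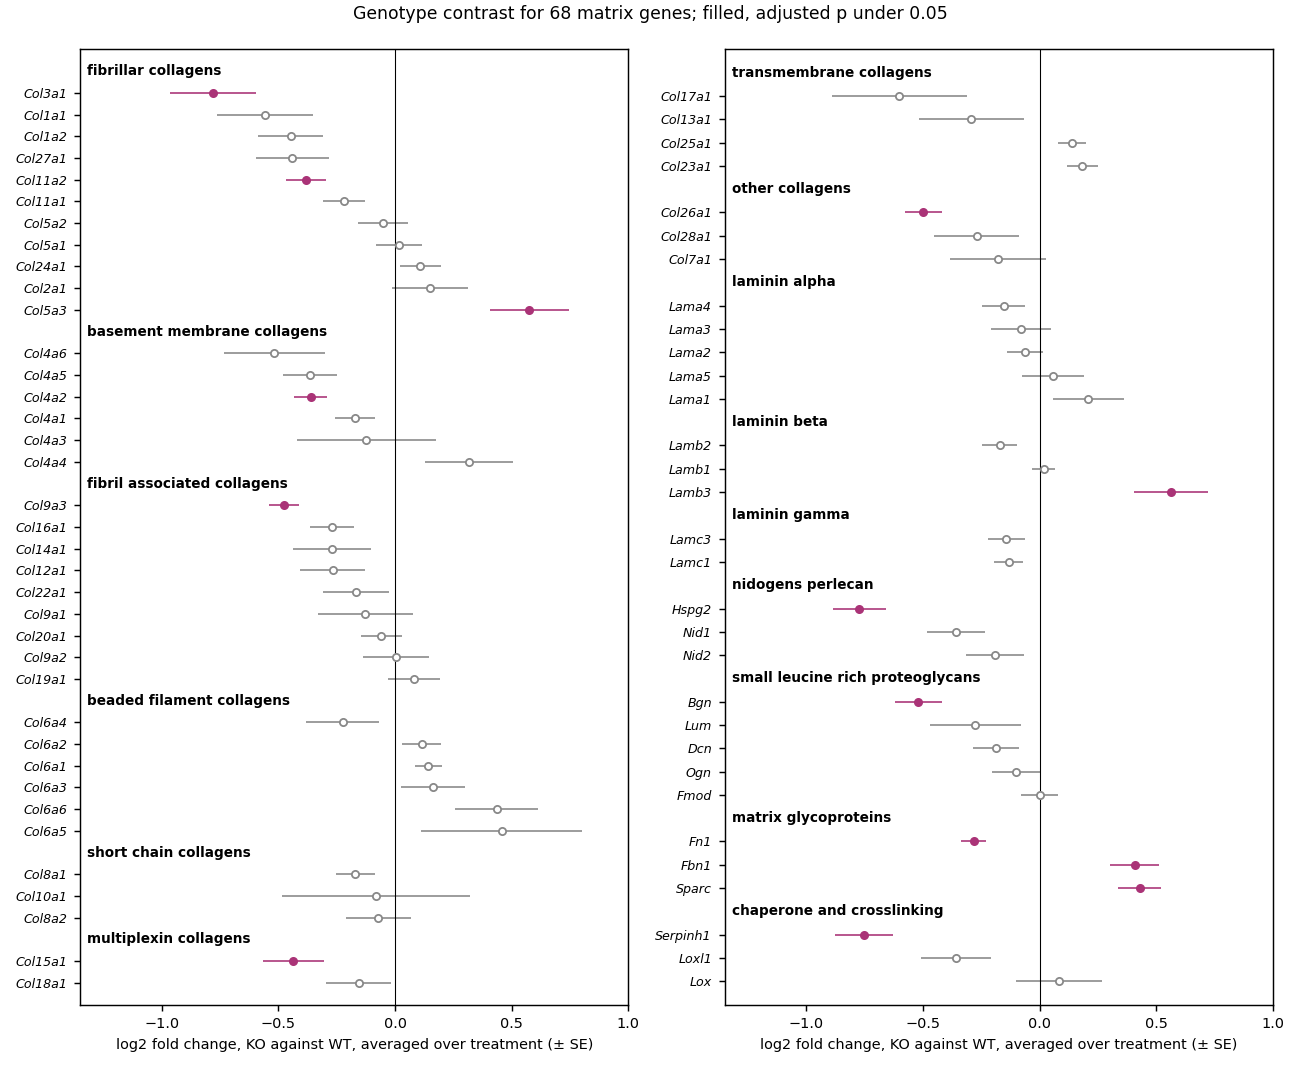
Log2 fold change of 68 of the 69 members in KO against WT mice averaged over treatment (horizontal axis, log2 scale of normalized count plus 1, bars ± SE of the fit on 12 mice), arranged by role; filled points passed an adjusted p of 0.05. The filled points lie left of 0 for 10 members and right of 0 for Sparc, Fbn1, Lamb3 and Col5a3, and the collagen VI chains other than Col6a4 lie to the right of 0 without passing.

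The count of 14 was 9 without KO-Mem replicate 1 and 22 without KO-Mem replicate 3, and it was 10 without KO-Veh replicate 3, the mouse with cerebellar transcripts. Over all genes, the fits with 1 mouse left out called 528 to 3263 genes, against 1856 with all mice. Without KO-Mem replicate 3, 18 members were lower and 4 higher, 18.5% of all genes passed, all 14 calls were kept, and Col1a2, Col1a1, Col12a1, Nid1, Col4a5, Col4a6, Col27a1 and Dcn were added. Of the 14 calls, 9 were kept whichever mouse was left out, and 7 members were called when the variance prior had no trend on the mean. Col3a1 was not called without KO-Veh replicate 3 or KO-Mem replicates 1 or 2 (adjusted p up to 0.058). The calls of Fbn1, Col5a3, Lamb3 and Col15a1 were kept in 5, 3, 2 and 2 of the 12 fits with 1 mouse left out, with adjusted p-values up to 0.0779, 0.116, 0.101 and 0.116. Since the libraries are of bulk tissue, fewer cells of a type and less RNA per cell cannot be told apart in any of these values.

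Among the basement membrane genes, Hspg2 (perlecan; chromosome 4, 137468769 to 137570630, plus strand, GRCm38), the heparan sulfate proteoglycan that links laminin and collagen IV networks, showed the clearest difference. Its normalized counts were 1690.3, 1459.7 and 1228 (WT-Veh), 1327, 1164 and 1350.2 (WT-Mem), 788, 1048 and 884 (KO-Veh) and 601, 624 and 927 (KO-Mem). The highest KO value lay below the lowest WT value, and the log2 fold change of the genotype contrast was -0.77 ± 0.11 (SE, limma adjusted p = 0.00615). Nid1, a nidogen that bridges laminin and collagen IV, had 689, 739 and 832 (WT-Veh), 764, 688 and 875 (WT-Mem), 593, 924 and 597 (KO-Veh) and 419.9, 484 and 657 (KO-Mem). KO-Veh replicate 2 had the highest value of the 12 mice and the other 5 KO mice lay below all WT mice. Its log2 fold change was -0.36 ± 0.13 (SE, limma adjusted p = 0.0789); without KO-Mem replicate 3 it was -0.45 and passed (adjusted p = 0.0177). Nid2 had a log2 fold change of -0.19 ± 0.13 (SE, limma adjusted p = 0.324), and shares part of its exons with Rtraf on the opposite strand, which an unstranded kit cannot separate.

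**Figure D2:**
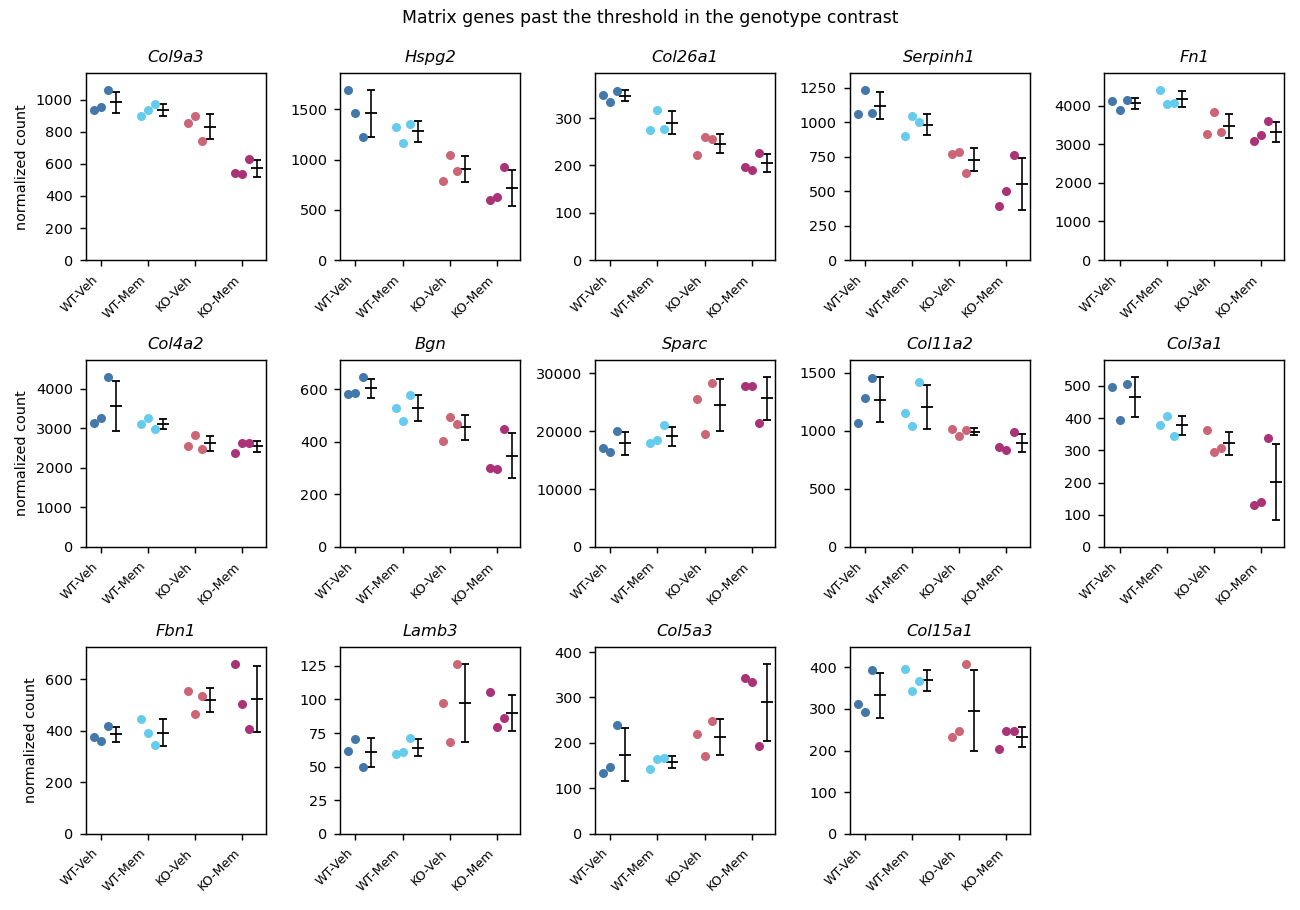
Normalized counts (vertical axes, linear, starting at 0) of the 14 members past the threshold in the genotype contrast, ordered by adjusted p; each point is 1 mouse and the bar beside each group is the mean ± SD of 3 mice. In Col9a3, Hspg2, Col26a1, Serpinh1, Fn1, Col4a2 and Col11a2 the 6 KO points lie below the 6 WT points, and in Col3a1, Bgn and Hspg2 KO-Mem replicate 3 lies above the other KO-Mem mice.

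The 6 chains of collagen IV, the network collagen of basement membranes, did not move alike. Col4a2 (chromosome 8, 11312805 to 11449287, plus strand) had 3142, 3252 and 4289 (WT-Veh), 3094, 3248 and 2974 (WT-Mem), 2554, 2831 and 2464 (KO-Veh) and 2379, 2619 and 2615 (KO-Mem) normalized counts. Each KO mouse lay below each WT mouse, with a log2 fold change of -0.36 ± 0.07 (SE, limma adjusted p = 0.0113). Col4a1, which pairs with Col4a2 in vascular collagen IV and whose start lies head to head with that of Col4a2, had a group mean ± SD of 2606 ± 280.2, 2492 ± 332, 2288 ± 207 and 2236 ± 360.5 in the vehicle and memantine WT groups and the vehicle and memantine KO groups, and a log2 fold change of -0.17 ± 0.09 (SE, limma adjusted p = 0.192). The difference between these 2 log2 fold changes was not tested. Col4a5 and Col4a6 had log2 fold changes of -0.36 ± 0.12 (SE, limma adjusted p = 0.058) and -0.52 ± 0.22 (SE, limma adjusted p = 0.13). Col4a3 and Col4a4 were the chains with the smallest means per kilobase (4.20 and 4.53 normalized counts per kb of exon, against 446 for Col4a2), and their log2 fold changes were -0.12 ± 0.30 (SE, limma adjusted p = 0.814) and 0.32 ± 0.19 (SE, limma adjusted p = 0.283). Without KO-Veh replicate 3 that of Col4a3 was -0.37 (limma adjusted p = 0.413). Col15a1 and Col18a1, the multiplexin collagens that lie at the outer face of basement membranes, had log2 fold changes of -0.44 ± 0.13 (SE, limma adjusted p = 0.0462) and -0.16 ± 0.14 (SE, limma adjusted p = 0.476), and without KO-Veh replicate 3 that of Col18a1 was -0.26 (limma adjusted p = 0.222). The Col15a1 counts were 310.5, 292 and 393 (WT-Veh), 394, 343 and 366 (WT-Mem), 232, 247 and 408 (KO-Veh) and 204, 246 and 246 (KO-Mem). KO-Veh replicate 3 had the highest Col15a1 count of the 12 mice and the other 5 KO mice the 5 lowest.

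The laminins are heterotrimers of an alpha, a beta and a gamma chain. Of their 11 chains 1 passed, near the 10.5% of all genes. It was Lamb3, whose call was kept in 2 of the 12 fits with 1 mouse left out. The 5 alpha chains had log2 fold changes between -0.15 (Lama4, the endothelial alpha chain) and 0.21 (Lama1, an alpha chain of the pial basement membrane), and none passed. KO-Veh replicate 3 had 358 normalized counts of Lama1 and the other 11 mice 172 to 254, and without that mouse the log2 fold change of Lama1 was 0.06 (limma adjusted p = 0.801). Lama5, the alpha chain with the highest mean count, had 0.06 ± 0.13 (SE, limma adjusted p = 0.804). The chain with the highest mean per kilobase was Lamb2 (233 normalized counts per kb), with a log2 fold change of -0.17 ± 0.07 (SE, limma adjusted p = 0.139), while Lamb1, with 912 to 1025 normalized counts in all 12 mice, had 0.02 ± 0.05 (SE, limma adjusted p = 0.848). Lamc1, the gamma chain shared by most laminins, had -0.13 ± 0.06 (SE, limma adjusted p = 0.181). Lamb3, a beta chain best known from the epithelial laminin of skin, had 61.7, 70.7 and 49.5 (WT-Veh), 59.5, 61.2 and 71.5 (WT-Mem), 97.2, 68.1 and 126 (KO-Veh) and 105, 79.6 and 85.8 (KO-Mem) normalized counts. The WT values lay between 49.5 and 71.5 and overlapped the lowest KO value, and the log2 fold change was 0.56 ± 0.16 (SE, limma adjusted p = 0.0379). Lama3, an alpha chain that assembles with it, had a log2 fold change of -0.08 ± 0.13 (SE, limma adjusted p = 0.719).

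Among the 11 fibrillar collagens, 2 were lower and 1 higher, against 5.73% and 4.79% of all genes. Col3a1 (chromosome 1, 45311538 to 45349706, plus strand), the chain of collagen III, had 495, 395 and 506 (WT-Veh), 379.6, 406 and 346 (WT-Mem), 363, 296 and 308 (KO-Veh) and 131, 139 and 337 (KO-Mem) normalized counts. KO-Mem replicates 1 and 2 were below all other mice and KO-Mem replicate 3 was between the KO-Veh values. The log2 fold change was -0.78 ± 0.18 (SE, limma adjusted p = 0.022). Col1a1 and Col1a2, the chains of collagen I, had KO-Mem replicates 1 and 2 as their lowest mice too. The Col1a1 counts were 1374, 982 and 897 (WT-Veh), 628, 702 and 731 (WT-Mem), 732, 631 and 531 (KO-Veh) and 352, 427 and 1043 (KO-Mem). KO-Mem replicate 3 had more Col1a1 than any mouse except WT-Veh replicate 1. The log2 fold change was -0.56 ± 0.21 (SE, limma adjusted p = 0.0935) for Col1a1 and -0.45 ± 0.14 (SE, limma adjusted p = 0.054) for Col1a2, and without KO-Mem replicate 3 it was -0.79 (adjusted p = 0.000928) and -0.61 (adjusted p = 0.000316). Col11a2, a collagen XI chain, had 1072, 1282 and 1459 (WT-Veh), 1158, 1042 and 1420.2 (WT-Mem), 1018, 957 and 1010.1 (KO-Veh) and 859.7, 839.8 and 989 (KO-Mem). The highest KO count lay below the lowest WT count, with a log2 fold change of -0.38 ± 0.09 (SE, limma adjusted p = 0.0182), and Col11a1 had -0.22 ± 0.09 (SE, limma adjusted p = 0.119). Collagen V, which regulates the diameter of collagen I fibrils, was divided: Col5a1 and Col5a2 had 0.02 ± 0.10 (SE, limma adjusted p = 0.932) and -0.05 ± 0.11 (SE, limma adjusted p = 0.779), whereas Col5a3 had 134, 148 and 240.4 (WT-Veh), 142, 164 and 166 (WT-Mem), 220.2, 170.4 and 248 (KO-Veh) and 343, 333 and 192 (KO-Mem) normalized counts and a log2 fold change of 0.58 ± 0.17 (SE, limma adjusted p = 0.0446). KO-Mem replicates 1 and 2 had the highest Col5a3 counts and KO-Mem replicate 3 a count below that of WT-Veh replicate 3.

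Serpinh1 (chromosome 7, 99345376 to 99353239, minus strand), the chaperone of collagen folding, had 1063, 1234 and 1071 (WT-Veh), 900.4, 1045 and 1004 (WT-Mem), 770.1, 786 and 635 (KO-Veh) and 395, 503 and 762 (KO-Mem) normalized counts. All KO mice lay below all WT mice, the lowest being KO-Mem replicates 1 and 2. The log2 fold change was -0.75 ± 0.12 (SE, limma adjusted p = 0.00766). Serpinh1 lies on the chromosome of Shank2, 44.6 Mb away, and no other member lies on that chromosome. Whether flanking sequence of the mutant line has a part in its level was not tested. The lysyl oxidases Lox and Loxl1, which cross-link collagen and elastin, had log2 fold changes of 0.08 ± 0.18 (SE, limma adjusted p = 0.798) and -0.36 ± 0.15 (SE, limma adjusted p = 0.133).

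The collagens that decorate fibrils or belong to no large class included Col9a3, which had the smallest adjusted p of the members. Col9a3 (chromosome 2, 180597790 to 180622189, plus strand), a chain of collagen IX, had 938, 954 and 1059.6 (WT-Veh), 899, 934 and 972 (WT-Mem), 855, 898 and 744 (KO-Veh) and 545, 539.7 and 629.8 (KO-Mem) normalized counts. The KO-Mem mice formed a group of their own below the KO-Veh mice, which in turn lay below the WT mice. The log2 fold change was -0.48 ± 0.06 (SE, limma adjusted p = 0.00419). A stretch of the Col9a3 exons overlaps Tcfl5 on the opposite strand, a gene with a mean of 38.0 normalized counts. Its partner chains Col9a1 and Col9a2 had log2 fold changes of -0.13 ± 0.20 (SE, limma adjusted p = 0.715) and 0.00 ± 0.14 (SE, limma adjusted p = 0.989). Col26a1 had 349.6, 334 and 357 (WT-Veh), 275, 318 and 277 (WT-Mem), 222, 259.8 and 256 (KO-Veh) and 196, 191 and 227 (KO-Mem) normalized counts, with all KO mice below all WT mice, and its log2 fold change was -0.50 ± 0.08 (SE, limma adjusted p = 0.00654). The 9 fibril-associated collagens had no other call, and 7 of them lay below 0; Col16a1, the one with the highest mean count, had -0.27 ± 0.09 (SE, limma adjusted p = 0.0752) and Col12a1 -0.27 ± 0.14 (SE, limma adjusted p = 0.22). None of the 6 collagen VI chains passed, and 5 of the 6 lay above 0; Col6a1, with 2959 to 3913 normalized counts, had a log2 fold change of 0.14 ± 0.06 (SE, limma adjusted p = 0.128). Of the transmembrane collagens, none passed, and Col25a1, a neuronal collagen found in amyloid plaques, had 0.14 ± 0.06 (SE, limma adjusted p = 0.135). Col8a1, the short-chain collagen with the highest mean count, had -0.17 ± 0.08 (SE, limma adjusted p = 0.192).

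Among the small leucine-rich proteoglycans, which bind collagen fibrils, Bgn (biglycan) was lower in KO mice. Its counts were 582, 585 and 646 (WT-Veh), 529, 478 and 578 (WT-Mem), 402, 495 and 468 (KO-Veh) and 300.4, 295 and 448 (KO-Mem). Only KO-Veh replicate 2 exceeded the lowest WT mouse, and the log2 fold change was -0.52 ± 0.10 (SE, limma adjusted p = 0.0114). Dcn (decorin), Lum (lumican), Ogn (osteoglycin) and Fmod (fibromodulin) had log2 fold changes of -0.19 ± 0.10 (SE, limma adjusted p = 0.215), -0.28 ± 0.20 (SE, limma adjusted p = 0.365), -0.10 ± 0.10 (SE, limma adjusted p = 0.555) and 0.00 ± 0.08 (SE, limma adjusted p = 0.995). The 3 matrix glycoproteins all passed, in different directions. Fn1 (fibronectin) had 4113, 3888 and 4155 (WT-Veh), 4395, 4044 and 4069 (WT-Mem), 3251, 3838 and 3319 (KO-Veh) and 3082, 3249 and 3596 (KO-Mem) normalized counts. Each KO mouse lay below each WT mouse, with a log2 fold change of -0.28 ± 0.05 (SE, limma adjusted p = 0.0106). Sparc, which binds collagen and had the highest mean per kilobase of the 69 members (5754 normalized counts per kb, against 769 for Col6a1, the next), had 17084, 16479 and 20086 (WT-Veh), 17957, 18469 and 21001 (WT-Mem), 25573, 19540.1 and 28382 (KO-Veh) and 27721, 27833 and 21423 (KO-Mem). KO-Veh replicate 2 lay within the WT range and the other KO mice above it, and the log2 fold change was 0.43 ± 0.09 (SE, limma adjusted p = 0.0155). Fbn1 (fibrillin 1), the scaffold of elastic microfibrils, had 378, 362 and 420.1 (WT-Veh), 445, 390.4 and 344 (WT-Mem), 555, 466 and 536 (KO-Veh) and 659.5, 502 and 408 (KO-Mem). KO-Mem replicate 3 was the KO mouse within the WT range, and the log2 fold change was 0.41 ± 0.11 (SE, limma adjusted p = 0.0302). Fbn1 shares 20.1% of its exon bases with Gm9913 on the opposite strand, which an unstranded kit cannot separate. Gm9913 was not in the expression table, so its level is not known.

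Within each treatment, the genotype difference was tested on 6 mice. In Veh-K/W no member passed, against 0.0283% of all genes by limma, and the smallest adjusted p of a member was 0.131. At an unadjusted p under 0.05, 16 members were lower and 3 higher, against 7.68% and 6.73% of all genes. In 17 members all KO-Veh mice lay below all WT-Veh mice, against 10.7% of all genes. Those with the smallest p were Serpinh1 with a log2 fold change of -0.62 ± 0.10 (SE, limma adjusted p = 0.131), Hspg2 with -0.68 ± 0.13 (SE, limma adjusted p = 0.134), Col1a1 with -0.77 ± 0.16 (SE, limma adjusted p = 0.135) and Col1a2 with -0.46 ± 0.10 (SE, limma adjusted p = 0.135). The member with the largest difference was Col6a4, a collagen VI chain, with 175, 137 and 195 (WT-Veh), 147, 98.0 and 123 (WT-Mem), 82.4, 122 and 90.9 (KO-Veh) and 201, 120.1 and 146 (KO-Mem) normalized counts and a log2 fold change of -0.77 ± 0.19 (SE, limma adjusted p = 0.164). In Mem-K/W 1 member, Col9a3, passed, with -0.71 ± 0.09 (SE, limma adjusted p = 0.0343), against 0.068% of all genes. At an unadjusted p under 0.05, 15 members were lower and 9 higher, against 10.8% and 10.1% of all genes, and in 15 members all KO-Mem mice lay below all WT-Mem mice, against 13.5%. Hspg2 had -0.86 ± 0.15 (SE, limma adjusted p = 0.0884), Col15a1 -0.67 ± 0.12 (SE, limma adjusted p = 0.0884) and Fn1 -0.34 ± 0.07 (SE, limma adjusted p = 0.0884). The largest difference was that of the transmembrane Col17a1, -1.15 ± 0.45 (SE, limma adjusted p = 0.191), which rested on WT-Mem replicates 1 and 3 with 66.8 and 79.1 normalized counts while the other 10 mice had 18.8 to 36.0.

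The Mem-K/W count depended on 1 mouse. Without KO-Mem replicate 3, 20 members passed, 16 lower and 4 higher, against 10.8% of all genes, and leaving out any other mouse left 0. Over all genes, these fits called 2 to 1911 genes. The call of Col9a3 was also lost without the filter on low means, with the replicate block and without the variance trend, each of which left 0 calls. In the fit without KO-Mem replicate 3, Col3a1 had a log2 fold change of -1.48 ± 0.13 (SE, limma adjusted p = 0.00145) and Col5a3 1.10 ± 0.14 (SE, limma adjusted p = 0.00294), against -1.04 ± 0.30 (SE, limma adjusted p = 0.118) and 0.83 ± 0.21 (SE, limma adjusted p = 0.0974) with all mice. The comparison that changed both factors, KO-Mem against WT-Veh, had 8 members past the threshold, against 3.37% of all genes. These were Col9a3, Col26a1, Hspg2, Serpinh1, Bgn, Col3a1 and Col4a2, which were lower, and Sparc, which was higher. Col3a1 had the largest log2 fold change of these, -1.34 ± 0.30 (SE, limma adjusted p = 0.0449). The count was 25 without KO-Mem replicate 3, against 14.1% of all genes, 1 without WT-Veh replicate 1, and 0 without any other single mouse. Over all genes, these fits called 1 to 2490 genes. In WT-Mem against KO-Veh no member passed, against 0.0227% of all genes, and 11 had an unadjusted p under 0.05, against 8.94%. These comparisons share groups with Veh-K/W and Mem-K/W and are not independent of them.

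**Figure D3:**
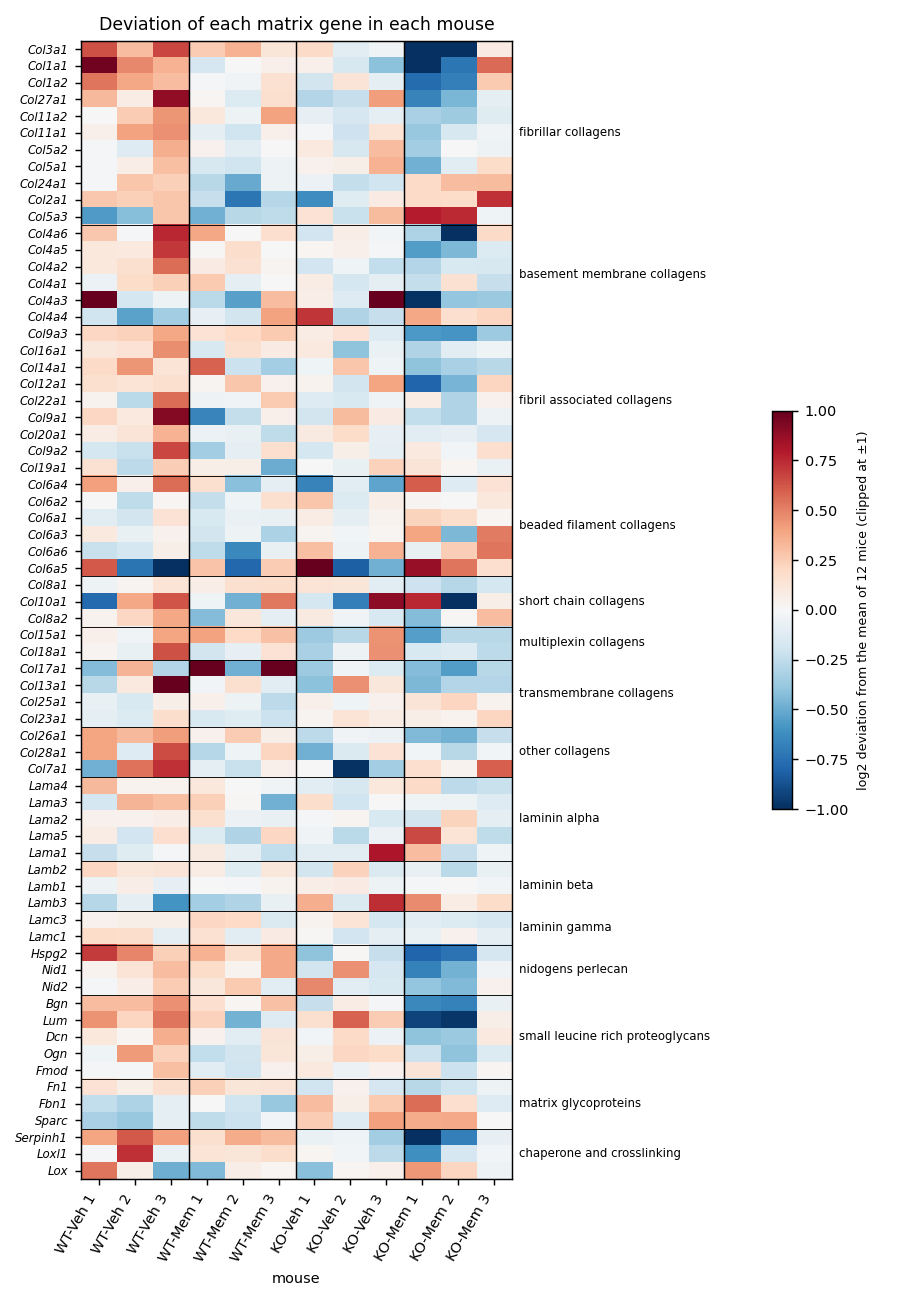
Deviation of 68 of the 69 members (rows, by role) in each mouse (columns) from the gene's mean over the 12 mice, on the log2 scale of normalized count plus 1, with colours limited to ±1. WT-Veh replicate 3 is above the mean in most rows (median deviation 0.27), KO-Mem replicates 1 and 2 are below it (-0.19 and -0.17), and KO-Mem replicate 3 lies near it (-0.04).

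Across the 4 groups, the mean was highest in WT-Veh for 41 of the 69 members and lowest in KO-Mem for 36, whereas KO-Mem was the highest group for 15 members, KO-Veh for 7 and WT-Mem for 6, and the lowest was WT-Mem for 16, WT-Veh for 9 and KO-Veh for 8. Over all genes with a mean of at least 10, the mean was highest in WT-Veh for 28.3% and lowest in KO-Mem for 33.9%. Single mice stood at the ends of this order. WT-Veh replicate 3 had the highest count of its group in 48 members and of all 12 mice in 24. KO-Mem replicate 1 had the lowest count of all 12 mice in 23 members and KO-Mem replicate 2 in 16, whereas KO-Mem replicate 3 had it in none and was the highest of its group in 40. The median deviation over all genes lay between 0.00166 and 0.00634 in each mouse. The summed normalized counts of the 11 fibrillar collagens were 7382 to 8173 in WT-Veh, 5771 to 6672 in WT-Mem, 5873 to 6437 in KO-Veh and 4536 to 6892 in KO-Mem. The WT-Veh sums lay above those of every other mouse, and the KO-Mem group had the widest range.

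Memantine was compared with vehicle to ask how early chronic treatment changed the same genes. Averaged over genotype, no member passed, against 0% of all genes by limma, and the smallest adjusted p of a member was 0.373. At an unadjusted p under 0.05, 16 members were lower and 0 higher after memantine, against 5.05% and 3.63% of all genes. Of the members, 53 of 69 lay below 0, against 49.6% of all genes, and the median log2 fold change of the members was -0.11, or -0.06 without WT-Veh replicate 3. Markers of several other cells moved the same way at an unadjusted p under 0.05: 9 of 10 oligodendrocyte, 6 of 8 smooth muscle, 3 of 5 blood, 3 of 7 border macrophage, 6 of 16 leptomeningeal, 5 of 14 endothelial and 3 of 11 pericyte markers were lower and 0 higher after memantine. In the remaining lists 2 of 13 choroid plexus and 2 of 8 astrocyte markers were lower and 0 higher. For forebrain neurons 0 of 8 markers were lower and 1 higher, and for cerebellum 0 of 8 were lower and 0 higher. The part of these cells in the values of the members was not tested. The members with the smallest p were Col9a3 with a log2 fold change of -0.31 ± 0.06 (SE, limma adjusted p = 0.373), Lum with -0.74 ± 0.20 (SE, limma adjusted p = 0.407), Ogn with -0.35 ± 0.10 (SE, limma adjusted p = 0.434) and Col26a1 with -0.26 ± 0.08 (SE, limma adjusted p = 0.434). Lum, a proteoglycan of collagen fibrils made by meningeal fibroblasts, had 73.8, 62.4 and 78.0 (WT-Veh), 63.2, 38.3 and 49.1 (WT-Mem), 60.2, 81.3 and 64.2 (KO-Veh) and 27.8, 26.9 and 55.9 (KO-Mem) normalized counts. Each vehicle mouse had at least 60.2, whereas 5 of the 6 memantine mice had less. The largest difference was that of Col4a3, -0.75 ± 0.30 (SE, limma adjusted p = 0.528), with 80.8, 32.9 and 35.9 (WT-Veh), 30.8, 25.3 and 46.3 (WT-Mem), 39.2, 34.0 and 103 (KO-Veh) and 18.2, 28.2 and 28.6 (KO-Mem) normalized counts, and it rested on 1 mouse of each vehicle group with 80.8 and 103 counts, the second being KO-Veh replicate 3, without which it was -0.51 (limma adjusted p = 0.607). Without KO-Mem replicate 3, 7 members passed in this contrast, all lower (Col3a1, Col1a2, Col1a1, Lum, Col9a3, Serpinh1 and Bgn), against 0.68% of all genes, and no other mouse had this effect on the count.

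In WT-M/V no member passed, against 0.0114% of all genes. At an unadjusted p under 0.05, 11 members were lower and 0 higher, against 2.47% and 1.5%, and in 12 members all WT-Mem mice lay below all WT-Veh mice, against 5.19% of all genes. The chains of collagen I had the smallest p, with log2 fold changes of -0.64 ± 0.14 (SE, limma adjusted p = 0.978) for Col1a1 and -0.37 ± 0.09 (SE, limma adjusted p = 0.978) for Col1a2. Col2a1 and Col11a1 had -0.67 ± 0.20 (SE, limma adjusted p = 0.978) and -0.38 ± 0.12 (SE, limma adjusted p = 0.978). The largest difference was that of Col17a1, 0.86 ± 0.47 (SE, limma adjusted p = 0.978), which rested on the same pair of WT-Mem mice as in Mem-K/W. In KO-M/V no member passed, against 0% of all genes. At an unadjusted p under 0.05, 7 members were lower and 4 higher, against 4.54% and 4.34%, and in 8 members all KO-Mem mice lay below all KO-Veh mice, against 6.82%. The log2 fold changes with the smallest p were -0.54 ± 0.10 (SE, limma adjusted p = 0.554) for Col9a3, 0.44 ± 0.10 (SE, limma adjusted p = 0.554) for Col24a1, -0.95 ± 0.30 (SE, limma adjusted p = 0.554) for Lum and -0.40 ± 0.13 (SE, limma adjusted p = 0.554) for Ogn, and the largest was -1.04 ± 0.41 (SE, limma adjusted p = 0.555) for Col4a3, which was -0.55 (limma adjusted p = 0.613) without KO-Veh replicate 3. Without KO-Mem replicate 3, Col3a1, Col1a2 and Col9a3 passed in KO-M/V, with log2 fold changes of -1.25, -0.68 and -0.61 (adjusted p = 0.0165, 0.0443 and 0.0462), against 0.547% of all genes.

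**Figure D4:**
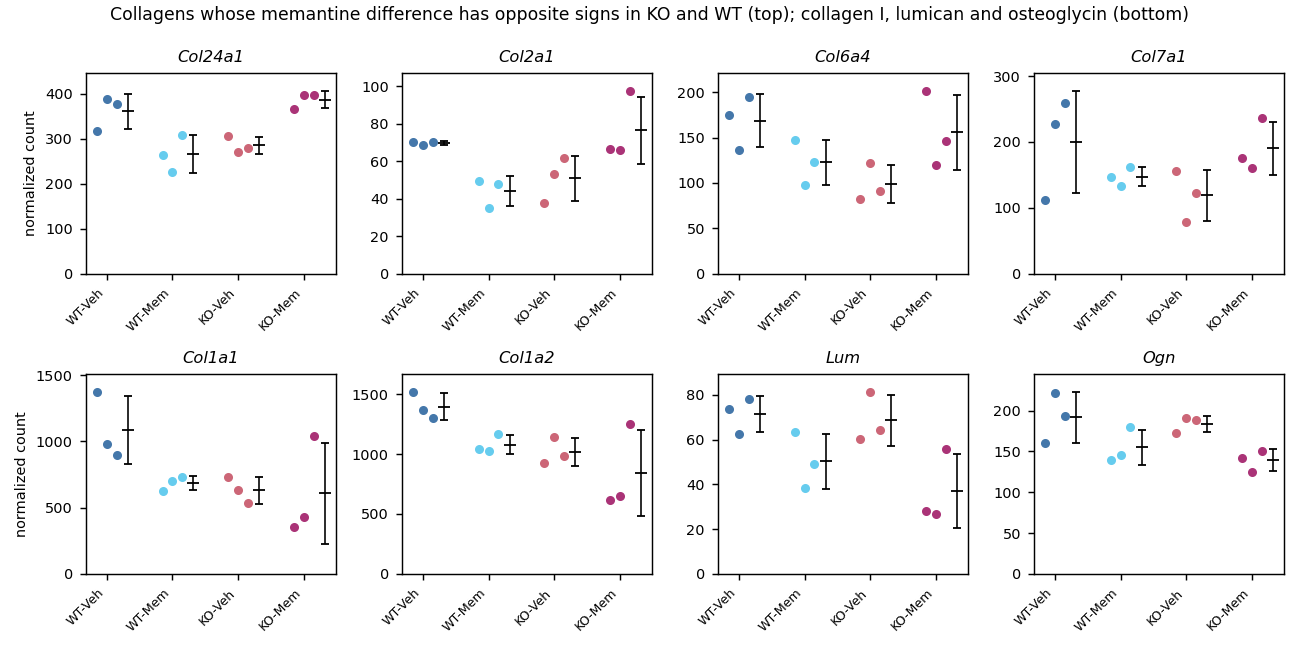
Normalized counts (vertical axes, linear, starting at 0) of 8 members in each mouse, with the mean ± SD of 3 mice beside each group. In Col24a1 and Col2a1 the WT-Veh and KO-Mem mice lie above the WT-Mem and KO-Veh mice; in Col1a1, Col1a2 and Lum KO-Mem replicate 3 lies above the other mice of its group.

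The interaction contrast, Mem-K/W minus Veh-K/W, tested whether the genotype difference changed with treatment. No member passed by limma, against 0% of all genes, and the smallest adjusted p of a member was 0.948. At an unadjusted p under 0.05 there were 6 members, against 4.76% of all genes. These were Col24a1, Col2a1, Col9a3, Col6a4, Col7a1 and Col8a1. Col24a1, a fibrillar collagen known from developing bone, had 317, 388 and 378 (WT-Veh), 264, 226 and 309.7 (WT-Mem), 307, 271 and 279 (KO-Veh) and 366, 397 and 398 (KO-Mem) normalized counts. Its WT-Veh and KO-Mem mice all lay above its WT-Mem and KO-Veh mice, and the interaction was 0.88 ± 0.17 (SE, limma adjusted p = 0.948). Col2a1, the main collagen of cartilage, had 70.3, 68.7 and 70.6 (WT-Veh), 49.4, 34.9 and 47.6 (WT-Mem), 37.5, 53.4 and 61.6 (KO-Veh) and 66.4, 66.1 and 97.3 (KO-Mem) normalized counts. Its groups were arranged in the same way, and the interaction was 1.26 ± 0.32 (SE, limma adjusted p = 0.948). Col6a4 and Col7a1 had interactions of 1.10 ± 0.31 (SE, limma adjusted p = 0.948) and 1.07 ± 0.41 (SE, limma adjusted p = 0.948), with KO-Mem and WT-Mem mice that overlapped, and for Col9a3 the interaction of -0.47 ± 0.13 (SE, limma adjusted p = 0.948) had the opposite sign.

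Genes that serve the matrix but are not among the members were counted in 4 lists. Of 21 genes for collagen modification and secretion, 2 were lower in the genotype contrast and 0 higher, where 5.73% of all genes were lower and 4.79% higher. P4ha1, the catalytic subunit of the main collagen prolyl 4-hydroxylase, had 1272, 1409 and 1481 (WT-Veh), 1383, 1172 and 1351 (WT-Mem), 1033, 1039 and 664 (KO-Veh) and 574, 904 and 1130.3 (KO-Mem) normalized counts and a log2 fold change of -0.63 ± 0.15 (SE, limma adjusted p = 0.0195). Plod1, a lysyl hydroxylase of collagen, had -0.44 ± 0.08 (SE, limma adjusted p = 0.00893). Of 11 genes for collagen processing and cross-linking, 2 were higher: Bmp1, the C-proteinase of procollagen, with 0.28 ± 0.05 (SE, limma adjusted p = 0.0112), and Adamts3, an N-proteinase of procollagen, with 0.46 ± 0.10 (SE, limma adjusted p = 0.0149). All 6 KO mice had lower P4ha1 than all WT mice, and KO-Veh replicate 2 had the lowest Bmp1 of the KO mice, 3246 normalized counts, below the highest WT value of 3253.

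Of 17 receptors of matrix, 6 were lower and 0 higher in KO mice, against 5.73% and 4.79% of all genes. These were the collagen-binding integrins Itga1 (-0.39 ± 0.07 (SE, limma adjusted p = 0.00983)) and Itga10 (-0.83 ± 0.17 (SE, limma adjusted p = 0.0125)), the laminin-binding Itga6 (-0.30 ± 0.07 (SE, limma adjusted p = 0.0271)) and Itgb4 (-0.83 ± 0.15 (SE, limma adjusted p = 0.00971)), the collagen receptor Ddr1 (-0.21 ± 0.05 (SE, limma adjusted p = 0.0167)) and the laminin receptor Bcam (-0.26 ± 0.07 (SE, limma adjusted p = 0.0281)), each value being a log2 fold change. Itgb4, which pairs with Itga6, had 412, 481 and 592 (WT-Veh), 554, 416 and 327 (WT-Mem), 211, 365 and 305 (KO-Veh) and 189, 248 and 249 (KO-Mem) normalized counts. Only 1 KO mouse, KO-Veh replicate 2, exceeded the lowest WT mouse. Of 12 matrix proteases and inhibitors, the membrane-bound Mmp15 and Mmp17 were lower (-0.38 ± 0.10 (SE, limma adjusted p = 0.0305) and -0.32 ± 0.07 (SE, limma adjusted p = 0.0126)) and the inhibitor Timp2 was higher (0.20 ± 0.04 (SE, limma adjusted p = 0.0175)), against the same shares of all genes. In the memantine contrast none of the genes of the 4 lists passed, against 0% of all genes.

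Markers of the cells that make or touch the matrix moved with several of these results. In the genotype contrast 8 of 14 endothelial markers were lower, 2 of 11 pericyte markers, 2 of 8 smooth muscle markers and 2 of 16 leptomeningeal fibroblast markers, with none higher, while 0 of 13 choroid plexus markers and 0 of 7 border macrophage markers passed. Of all genes tested, 5.73% were lower. The summed endothelial level was 12799 to 13555 normalized counts in WT-Veh, 11614 to 12517 in WT-Mem, 10715 to 11106 in KO-Veh and 10070.3 to 11151 in KO-Mem, so that all KO mice lay below all WT mice. The summed pericyte level was 8016 to 9224, 7517 to 8198, 7326 to 7827 and 6477 to 6676 in the same order, and the summed smooth muscle level 2073 to 2217, 1684 to 2030.2, 1690.3 to 2166 and 1357 to 1579. The median log2 fold change was -0.23 over the endothelial markers, -0.21 over the pericyte markers and -0.01 over the leptomeningeal markers.

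The leptomeningeal fibroblast markers, the cells that make most collagen I and III of the meninges, were present in each mouse and summed to 7894 to 9465 normalized counts in WT-Veh, 7220.0 to 8334 in WT-Mem, 7238 to 7599 in KO-Veh and 6114 to 7255 in KO-Mem. The markers that passed were the growth factor Igf2 (-0.36 ± 0.08 (SE, limma adjusted p = 0.0166)) and its binding protein Igfbp2 (-0.80 ± 0.14 (SE, limma adjusted p = 0.00827)), which choroid plexus and other cells also make. The transcription factors Foxc1 and Foxd1 had log2 fold changes of 0.00 ± 0.10 (SE, limma adjusted p = 0.988) and 0.05 ± 0.17 (SE, limma adjusted p = 0.865). KO-Mem replicate 1 had the lowest summed choroid plexus level, 7905 normalized counts, and KO-Mem replicate 3 one of 14961, within the 13323 to 15724 of WT-Veh.

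**Figure D5:**
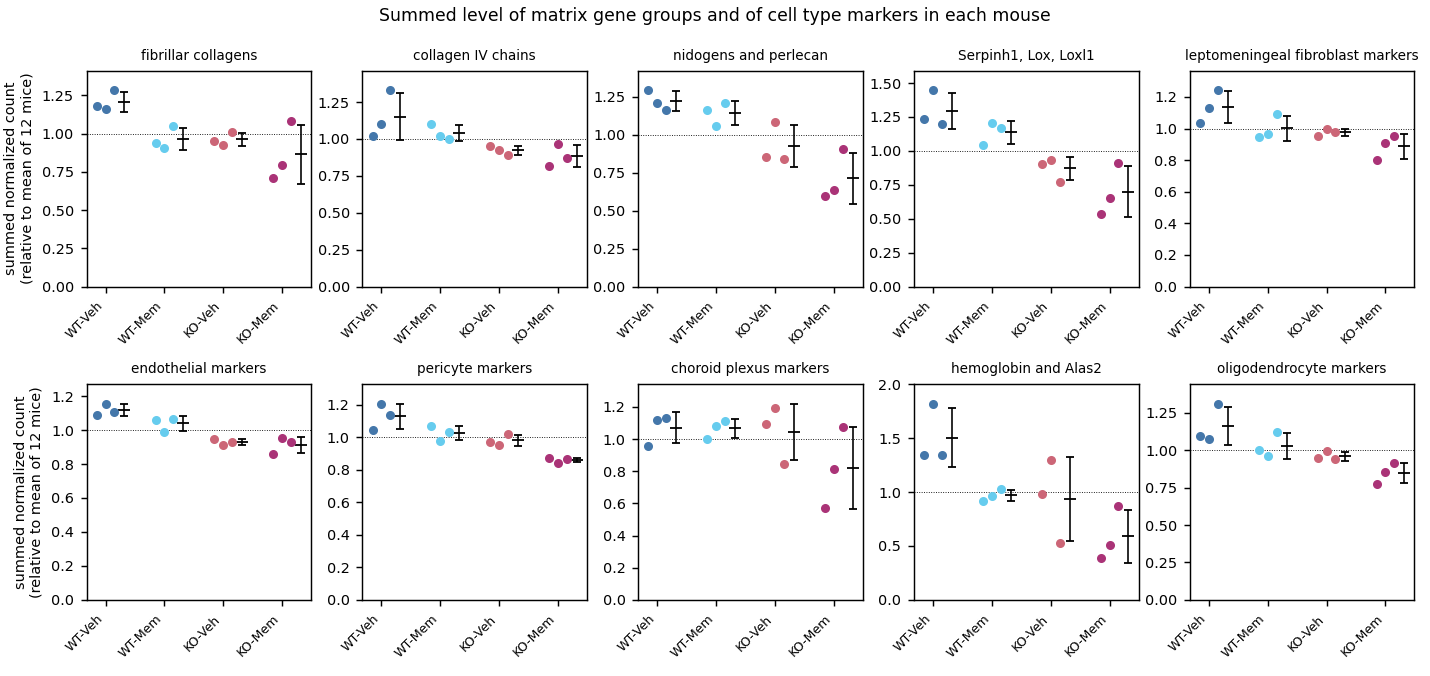
Summed normalized counts of matrix gene groups and of cell type markers in each mouse, relative to the mean of the 12 mice (vertical axes, linear, starting at 0; dotted line at 1), with the mean ± SD of 3 mice beside each group. KO-Mem replicate 3 is the highest KO-Mem mouse for fibrillar collagens, nidogens with perlecan, Serpinh1 with the lysyl oxidases and leptomeningeal fibroblast markers. It is also the highest for choroid plexus, hemoglobin and oligodendrocyte markers, but not for collagen IV chains, endothelial or pericyte markers. The endothelial sums of all 6 KO mice lie below those of all 6 WT mice.

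Red blood cell transcripts also differed between genotypes. Hba-a1, Hba-a2, Hbb-bs and Hbb-bt were lower in KO mice, with log2 fold changes from -1.31 to -0.64, and the summed level of these genes and Alas2 was 19448 to 26319.9 normalized counts in WT-Veh, 13301 to 14809 in WT-Mem, 7567 to 18764 in KO-Veh and 5626 to 12528 in KO-Mem. KO-Mem replicate 3 had the highest sum of its group and KO-Veh replicate 3 a sum of 7567. WT-Veh replicate 3, the highest of its group in 48 members, had a blood sum of 19448, nearly equal to the 19479 of WT-Veh replicate 1. That mouse had the highest sums of its group for oligodendrocyte, leptomeningeal and choroid plexus markers, but not for endothelial, pericyte or smooth muscle markers. Myelin transcripts moved as well: 7 of 10 oligodendrocyte markers were lower, and their sum was 358956 to 437570.0 (WT-Veh), 319782 to 374897 (WT-Mem), 314410.0 to 332181 (KO-Veh) and 258846 to 304112 (KO-Mem), so that WT-Mem and KO-Veh overlapped. The summed astrocyte level was 132398 to 133963 (WT-Veh), 123579 to 137454 (WT-Mem), 125140.0 to 133996 (KO-Veh) and 121260.0 to 128524 (KO-Mem), and the summed forebrain neuron level 112080.0 to 124370.0 (WT-Veh), 122074 to 125257 (WT-Mem), 117355 to 122007 (KO-Veh) and 119083 to 120982 (KO-Mem). Of 8 astrocyte markers, 2 were lower and 0 higher in the genotype contrast, against 5.73% and 4.79% of all genes. At an unadjusted limma p under 0.05, 3 of the 8 were lower and 2 higher, against 15.1% and 14.3% of all genes. The called astrocyte markers included the end-foot channel Aqp4 (-0.56 ± 0.09 (SE, limma adjusted p = 0.00654)). The part of vessels, blood, meninges or dissection in the differences of the matrix genes was not tested.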

How the data were processed

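RNA was sequenced with a poly-A kit that does not mark strand, from 12 mice in 4 groups of 3, grouped by the labels. The deposited values were gene-level signal, that is counts normalized with DESeq2 size factors by the authors from Salmon estimates (GRCm38). The submitters' processing notes list Salmon 1.1.0, R 3.6.2 and DESeq2 1.26.0. These values were not whole reads, so no count test was used, and the total depth per sample was unknown.

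Each comparison used limma 3.58.1 in R 4.3.3 with a variance trend on log2(value + 1), over genes with a mean of at least 10, with Benjamini-Hochberg adjustment over all genes tested. A fold change on this scale understates that of low genes. Pairwise comparisons used their own 6 mice, and the averaged contrasts and the interaction used all 12. The script was checked on simulated data with known changes. Members, gene lists and marker lists were chosen with earlier results of these data known. Full statistics went to members that passed, the 4 with the smallest p and the 1 with the largest change in each contrast within a treatment or genotype and in the averaged contrasts, and the highest of each role. Gene positions are from GENCODE (GRCm38), in which 19295 of 19312 identifiers matched, and promoters from RefSeq. Alternatives were a pseudocount of 5, a mean of at least 50, no filter, a replicate block, each mouse left out, upper quartile scaling, no variance trend, and 12 mice in one fit. WT-M/KO-V and KO-M/WT-V denote WT-Mem against KO-Veh and KO-Mem against WT-Veh. Values of 1 member are not reported here, and its values remain in the counts over members.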

Additional observations from a re-analysis of the deposited data

Results flagged for a closer look

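Col24a1 and Col2a1 had effects of opposite direction in the groups that the design sets side by side. For Col24a1, all KO-Veh mice lay below all WT-Veh mice (log2 fold change -0.33) and all KO-Mem mice above all WT-Mem mice (0.55), and memantine mice lay below vehicle mice in WT (-0.44) and above them in KO (0.44). The interaction on the log2 scale was 0.88 ± 0.17 (SE, limma adjusted p = 0.948), and its unadjusted limma p was 0.000169. For Col2a1 the 4 log2 fold changes in the same order were -0.48, 0.78, -0.67 and 0.59, each with groups that did not overlap, and the interaction was 1.26 ± 0.32 (SE, limma adjusted p = 0.948) with an unadjusted limma p of 0.0016. Neither passed the correction over all genes tested, in which no gene of the table passed for the interaction. The share of all genes with such a crossing of groups was not counted, so these members cannot be set against it. The direction of both interactions was the same whichever mouse was left out. The groups had 3 mice each, too few for a search for single outlying mice.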

How the results depend on the processing

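With 1 mouse left out in turn, the members called ranged from 9 to 22 in the genotype contrast, 0 to 20 in Mem-K/W, 0 to 25 in KO-M/WT-V, 0 to 3 in KO-M/V and 0 to 7 in the memantine contrast, and stayed at 0 in Veh-K/W, WT-M/V, WT-M/KO-V and the interaction. Each highest value was that without KO-Mem replicate 3. Over all genes, these fits called 528 to 3263 genes in the genotype contrast, 2 to 1911 in Mem-K/W and 1 to 2490 in KO-M/WT-V. They called 0 to 97 in KO-M/V and 0 to 120 in the memantine contrast. Where the count of members stayed at 0, they called 2 to 53 in Veh-K/W and 1 to 3 in WT-M/V. In WT-M/KO-V they called 1 to 5 and in the interaction 0 to 4. The counts that follow are of members alone. Without the variance trend the count was 7 in the genotype contrast, 0 in Mem-K/W and 0 in KO-M/WT-V. Without a filter it was 0 in Mem-K/W and 5 in KO-M/WT-V, and with 12 mice in one fit 8 and 16. With the replicate block it was 0 in Mem-K/W, 13 in KO-M/WT-V and 13 in the genotype contrast, where Col5a3 and Lamb3 were lost (adjusted p = 0.0619 and 0.0501). The replicate numbers did not pair the mice: 0 of 18 same-number correlations of deviations exceeded 0.1 (-0.175 to 0.0802). The cause of these changes was not tested. No value changed sign after being called; over all results and alternatives, 2149 values kept their side of the threshold, 78 passed only under the alternative and 108 only in the reported fit. With 3 mice per group and unknown depth, differences of low genes such as Col10a1 were not detectable beyond the spread between mice.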

Other observations

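The ratio of chains that assemble together was compared within each mouse, as a description. The ratio of the Col1a1 to the Col1a2 normalized count was 0.690 to 0.903 in WT-Veh, 0.604 to 0.686 in WT-Mem, 0.540 to 0.791 in KO-Veh and 0.573 to 0.831 in KO-Mem, with overlapping groups. The ratio of Col4a2 to Col4a1 was 1.20 to 1.52, 1.08 to 1.46, 1.01 to 1.34 and 0.987 to 1.28 in the same order, also overlapping. The ratio of Col3a1 to Col1a2 was 0.213 to 0.269 in KO-Mem, below the 0.288 to 0.390 of WT-Veh and the 0.296 to 0.396 of WT-Mem and overlapping the 0.258 to 0.392 of KO-Veh. Here KO-Mem replicate 3, which had more of both transcripts than its group, had the highest ratio of the 3 KO-Mem mice.

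Several members lie side by side in the genome (GRCm38). The genes of Col4a1 and Col4a2 start head to head on chromosome 8 and share 22 bases, Col4a3 and Col4a4 start 71 bases apart on chromosome 1, and Col4a5 and Col4a6 start 1308 bases apart on the X chromosome. The genotype log2 fold changes of the 3 pairs were -0.17 and -0.36, -0.12 and 0.32, and -0.36 and -0.52. Col3a1 and Col5a2, 24614 bases apart on chromosome 1, had -0.78 and -0.05, and Dcn and Lum, 46984 bases apart on chromosome 10, had -0.19 and -0.28. None of these differences between neighbours was tested.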
